A study of Mus musculus with 6 samples.

Results

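The genes described here encode voltage-gated sodium channels, voltage-gated calcium channels and HCN channels, the hyperpolarization-activated cation channels, with their auxiliary subunits. They were taken by symbol alone: every row of the deposited expression table named as a numbered sodium channel pore or beta subunit gene (Scn), as a calcium channel gene of the Cacna1, Cacna2d, Cacnb or Cacng series apart from Cacng6, or as an Hcn gene. This gave 42 genes of 43346 rows, 23 for pore subunits and 19 for auxiliary subunits. RNA was sequenced from the brain of 3 adult males labelled Kdm5c deficient and 3 adult wild-type males, all littermates of a cross between a heterozygous Kdm5c deficient female on C57BL/6 and a wild-type 129 male, so that every mouse of both groups carried the mixed C57BL/6 and 129 (50:50) background. The labels describe neither the allele nor the part of the brain dissected. Of the 42 genes, 39 had enough reads to be tested, and these held 3 higher and 3 lower at the threshold used below.

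A voltage-gated sodium or calcium channel is built around a single large pore protein, which opens when the membrane depolarizes and sets which current the channel carries. Sodium channels start and carry the action potential, calcium channels turn depolarization into transmitter release, dendritic signals and gene regulation, and HCN channels, which open on hyperpolarization, pace rhythmic firing and set resting excitability. Auxiliary subunits bring the pores to the membrane, hold them at the right site and tune their opening, and several Cacng proteins instead escort AMPA-type glutamate receptors to synapses. Kdm5c, the X-linked gene altered here, encodes a demethylase of histone H3 lysine 4, a methylation mark of promoters and enhancers.

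Library totals ran from 20221675 to 24555412 counts. Levels are given as CPM, read counts scaled to a common library total. Kdm5c itself stood at 73.8, 65.5 and 78.8 CPM in deficient mice 1, 2 and 3 and at 77.5, 82.7 and 84.0 CPM in wild-type mice 1, 2 and 3, ranges that overlapped. Its log2 fold change of -0.16 ± 0.071 SE (-0.092 without deficient mouse 2) did not pass the quasi-likelihood test of edgeR, in which p-values are adjusted over all tested genes (adjusted p = 0.196), and since the allele is not described, the transcript level is no test of the genotypes. General neuronal markers were abundant in all mice, Snap25, a synaptic vesicle fusion protein gene, lying between 3057 and 3335 CPM. One library stood apart: deficient mouse 2 had a summed level of 9 cerebellar granule cell markers of 204 CPM, where the other 5 mice had 896 to 1456 CPM. For many of the genes in which deficient mouse 2 is the most extreme, the fold change without it is also given. Among marker lists of other cell types, 3 of 6 tested hypothalamic genes (Avp, Trh and Pomc) were called higher. So were 1 of 6 astrocyte genes (Gja1) and 1 of 2 oligodendrocyte precursor genes (Pdgfra). In these lists 5 of 6, 4 of 6 and 1 of 2 point estimates were above 0, in the same order. The part of these cells in the channel results was not tested.

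At an adjusted p under 0.05, Scn4b, Scn1a and Cacna1i fell in deficient brain, while the 3 that rose included Cacna2d4 and Scn3b. In all 6 passed of 39 tested members, or 15.4%, beside 4.93% of all 15127 tested genes called in either direction (2.45% higher and 2.48% lower). By role, 1 pore gene rose and 2 fell among 21 tested, and 2 auxiliary genes rose and 1 fell among 18 tested. Point estimates were below 0 for 16 of the 21 pore genes (15 to 17 under the other scalings of the libraries) and for 10 of the 18 auxiliary genes. The median log2 fold change was -0.16 for tested pore genes and -0.016 for tested auxiliary genes, against 0.0012 over all tested genes. In bulk tissue, fewer cells of a type and less RNA per cell cannot be told apart.

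**Figure D1:**
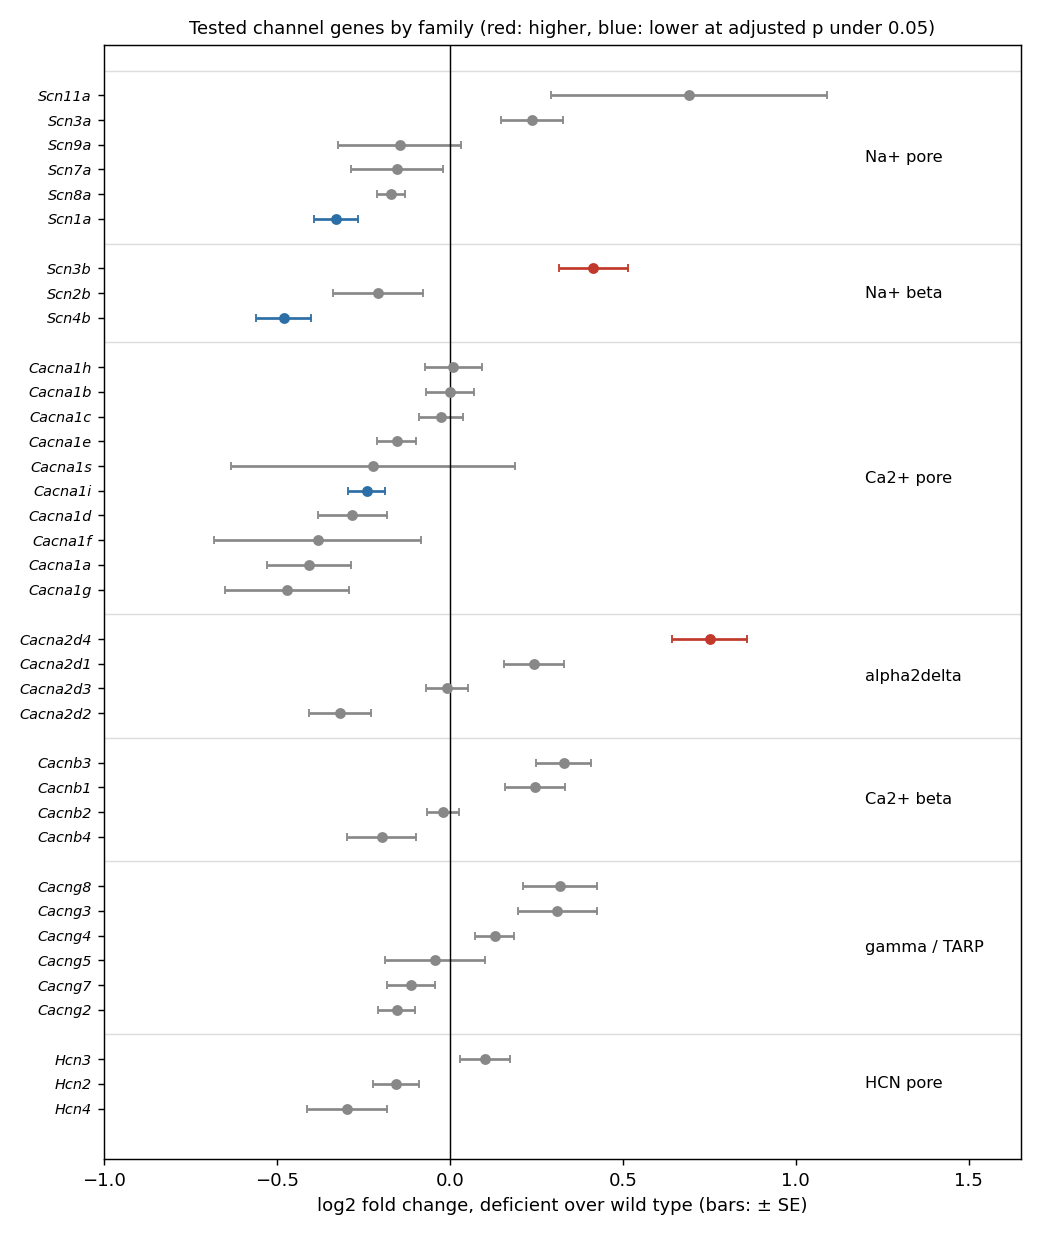
Log2 fold change of deficient over wild-type brain (x axis; points, bars ± SE, 3 mice per genotype) for 36 tested channel genes, grouped by family. Red and blue points are genes that rose and genes that fell at an adjusted p under 0.05; 9 of the 10 calcium pore genes lie at or left of 0 (8 or 10 under other scalings, since Cacna1b and Cacna1h lie close to 0), and the sodium beta and alpha2delta families each hold genes on both sides.

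The pore genes had longer transcripts, with a median longest annotated transcript of 8386 nt against 3927.5 nt for the auxiliary genes and 3403 nt for all tested genes with a length. With offsets for GC content and transcript length the medians were -0.056 and 0.032, and 13 of 21 pore genes had a negative estimate. Scn1a, Cacna1i and Scn3b lost their calls, Scn3b with a fold change no smaller than before. In this fit 4.87% of all tested genes were called. The calls also rested on the mice: with any 1 of the wild-type mice left out no member passed (at an unadjusted p under 0.05 there were 19, 13 and 14 members without wild-type mice 1, 2 and 3, against 22 with all mice, by edgeR). Of all tested genes, 24.9% had an unadjusted p under 0.05 with all mice, and 0.289%, 0.346% and 0.648% passed after adjustment in the fits that left out a wild-type mouse, in the same order. Without deficient mouse 1, 21 members passed, without deficient mouse 2, 8, including the same 6, and without deficient mouse 3, 2, of which Cacna2d4 was 1; of all tested genes these fits called 13.6%, 4.53% and 1.01%. DESeq2 called 10 members, the same 6 with Cacna1a, Cacna2d2, Cacnb3 and Scn8a, and limma-voom called 5 of the 6, without Scn3b, where they called 8.31% and 4.65% of all genes with an adjusted p.

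Values of the genotypes did not overlap for 18 of the 39 tested members, 46.2%, beside 30.8% of all tested genes. Deficient mice lay above in 7 of these, where 14.9% of all tested genes did so, and below in 11, where 16% did so. Among pore genes the split was 2 above and 7 below, and among auxiliary genes 5 above and 4 below.

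**Figure D2:**
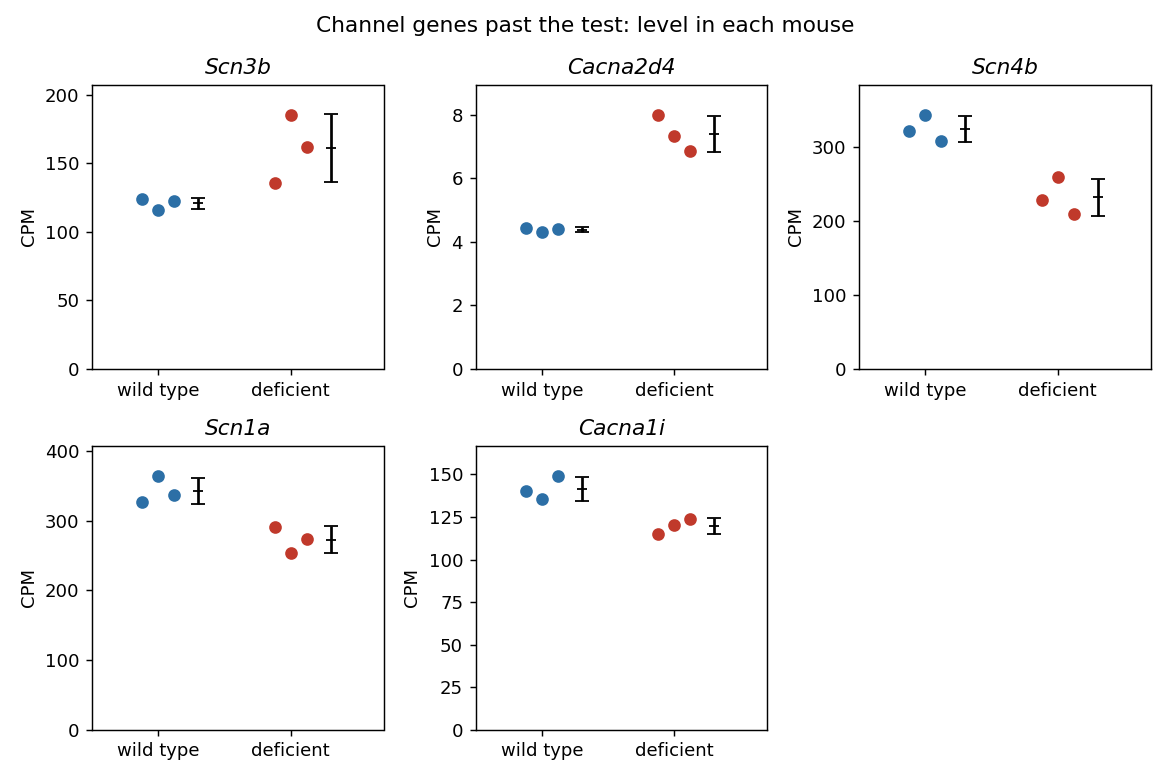
CPM in each mouse (points; y axes start at 0) with mean ± SD over 3 mice for 5 channel genes past the test. In every panel the 3 deficient mice lie on one side of the 3 wild-type mice; for Scn3b the nearest mice of the genotypes are at 136 and 124 CPM.

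The start regions of the 3 genes that fell are shown because the altered enzyme acts on a mark of promoters. These genes are also the called members with an entry in the RefSeq promoter table used (build GRCm38.p6). Each window runs from 250 bases before to 50 after the start of that entry, which can differ from the annotated gene start. For Scn4b most of the window lies inside the gene, which starts at chr9:45138395 in GENCODE M21. Sequences run 5′ to 3′ on the gene's strand, and capitals mark CG dinucleotides, the sites of DNA methylation, which cluster at many active promoters. Scn4b is read from chr9:45138374-45138673 on the plus strand, Scn1a from chr2:66440788-66441087 on the minus strand and Cacna1i from chr15:80286988-80287287 on the plus strand.
Scn4b: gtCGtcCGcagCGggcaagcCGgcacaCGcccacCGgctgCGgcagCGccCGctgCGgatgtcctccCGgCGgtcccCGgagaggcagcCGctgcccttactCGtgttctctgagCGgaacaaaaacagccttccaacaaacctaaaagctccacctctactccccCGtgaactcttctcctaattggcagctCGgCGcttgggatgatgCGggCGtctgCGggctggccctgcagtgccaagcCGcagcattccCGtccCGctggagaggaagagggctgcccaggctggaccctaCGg
Scn1a: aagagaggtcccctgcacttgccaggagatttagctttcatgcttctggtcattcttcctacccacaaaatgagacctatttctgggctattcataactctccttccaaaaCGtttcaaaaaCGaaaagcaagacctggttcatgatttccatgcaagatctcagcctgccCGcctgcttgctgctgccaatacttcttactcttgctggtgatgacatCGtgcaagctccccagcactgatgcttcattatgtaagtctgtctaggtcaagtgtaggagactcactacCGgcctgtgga
Cacna1i: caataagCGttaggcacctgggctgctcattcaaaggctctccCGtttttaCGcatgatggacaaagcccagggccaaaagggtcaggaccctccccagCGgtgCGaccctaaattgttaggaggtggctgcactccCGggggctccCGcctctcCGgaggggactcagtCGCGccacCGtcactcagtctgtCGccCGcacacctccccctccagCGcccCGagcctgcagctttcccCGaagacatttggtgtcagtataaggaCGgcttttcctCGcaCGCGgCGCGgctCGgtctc

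The Scn4b and Cacna1i windows hold 26 and 23 CG dinucleotides, more than 83.1% and 78.5% of the 32851 windows in the table, whereas the Scn1a window holds 5, more than 38.0%. The genes that fell thus differed in how CG-rich this window is. The E-box CACGTG, searched on both strands, was in none of the 40 windows of the 30 members with an entry, beside 7.15% of all windows. Entries for Scn3b and Cacna2d4 were not among them.

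Among sodium channel pores, a main gene of the brain fell. Scn1a, the sodium channel pore that inhibitory interneurons depend on most (chr2:66270778-66440840, GRCm38), had 291, 253 and 273 CPM in deficient mice 1, 2 and 3 and 327, 364 and 337 CPM in wild-type mice. Deficient mouse 2 was lowest and wild-type mouse 2 highest, and the genotypes did not overlap. The log2 fold change was -0.33 ± 0.064 SE, a fall by 20.4% (adjusted p = 0.0295 by edgeR), and -0.28 without deficient mouse 2 (adjusted p = 0.0294 by edgeR). Leaving out 1 mouse gave -0.38 to -0.28, and the call was lost without deficient mouse 3 or any 1 wild-type mouse (adjusted p up to 0.137 by edgeR). With GC and length offsets it was -0.25 (adjusted p = 0.0594 by edgeR). The GABAergic interneuron markers had summed levels of 1313, 1269 and 1302 CPM in deficient and 1338, 1309 and 1374 CPM in wild-type mice, ranges that overlapped, with none of 7 called. Among them Pvalb, a marker of fast-spiking interneurons that Purkinje cells also express, had 143, 56.7 and 102 CPM against 159.7, 171 and 167 CPM. Its level was lowest in deficient mouse 2. Lhx6 lay the other way without overlap, at 17.1, 23.4 and 19.0 CPM against 16.1, 14.3 and 15.6 CPM. Point estimates were above 0 for 4 of the 7 markers. The part of these markers in the Scn1a result was not tested.

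Scn8a, the pore concentrated at the axon initial segment and nodes of Ranvier, just missed the threshold. It had 489.8, 479.7 and 485 CPM in deficient and 542, 538 and 557 CPM in wild-type mice, without overlap, which is -0.17 ± 0.041 SE as a log2 fold change (adjusted p = 0.0527 by edgeR, and 0.336 with a log2 fold change of -0.085 under GC and length offsets). Scn3a, prominent in the embryonic brain, had 53.1, 69.4 and 64.6 CPM against 54.4, 53.0 and 51.4 CPM, overlapping through deficient mouse 1 (log2 fold change 0.24 ± 0.090 SE, or 0.15 without deficient mouse 2, adjusted p = 0.150 by edgeR). Scn2a, the main pore of excitatory neurons, stands in the table under its older symbol Scn2a1, which the choice by symbol did not take. Its values were 440.4, 498 and 489.6 CPM in deficient and 437, 419.7 and 483 CPM in wild-type mice, which overlapped (log2 fold change 0.092 ± 0.068 SE, adjusted p = 0.431 by edgeR).

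The remaining sodium pores were scarce. Scn7a, a sodium-level sensor rather than a voltage-gated channel, and Scn9a, a pore of peripheral sensory neurons, had means of 5.60 ± 0.619 and 4.01 ± 0.657 CPM in wild-type brain (SD, n = 3 each) and did not pass, and exons of Scn9a overlap an antisense gene. Scn11a, another sensory neuron pore, had 6 to 15 reads per mouse and a log2 fold change of 0.69 ± 0.40 SE, with overlapping genotypes. Scn10a, of sensory neurons, and Scn4a, of skeletal muscle, were not tested, at 3 to 18 and 1 to 3 reads per mouse. Of 4 sensory neuron markers Mrgprd was at 0 in every mouse and the summed level was 7.96 to 14.4 CPM in deficient and 8.13 to 12.4 CPM in wild-type mice, nearly all of it Prph.

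Among sodium channel beta subunits, Scn4b fell while Scn3b rose. Scn4b encodes a subunit joined to the pore by a disulfide bond, known for shaping the resurgent sodium current of Purkinje cells and enriched in striatal projection neurons. It had 228, 259 and 209.5 CPM in deficient mice 1, 2 and 3 and 322, 343 and 308 CPM in wild-type mice. Deficient mouse 3 was lowest, deficient mouse 2 was the highest of its genotype, and the genotypes were well apart. The log2 fold change was -0.48 ± 0.079 SE, a fall by 28.4% (adjusted p = 0.0213 by edgeR). The fall was larger without deficient mouse 2, at -0.57 (adjusted p = 0.00140 by edgeR). Purkinje cell markers summed to 2081, 1001 and 1768 CPM in deficient and 2275, 2384 and 2567 CPM in wild-type mice. These sums were lower in every deficient mouse, and their part in the fall was not tested. Summed striatal markers were 799, 1049.7 and 821 CPM in deficient and 918, 836 and 908 CPM in wild-type mice, so deficient mouse 2 was highest in them as well; none of these 9 markers was called and their part in the fall was not tested. Over the fits that left out 1 mouse the log2 fold change was -0.57 to -0.41, and the call was lost without deficient mouse 3 or any 1 wild-type mouse (adjusted p up to 0.107 by edgeR).

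Scn3b encodes a beta subunit held to the pore without a covalent bond and expressed early in neuronal development. Its values were 136, 185 and 162 CPM in deficient mice and 124, 116 and 122 CPM in wild-type mice, with deficient mouse 2 highest and deficient mouse 1 closest to wild type. The rise had a log2 fold change of 0.41 ± 0.10 SE and an adjusted p of 0.0495 by edgeR, at the edge of the threshold. It dropped to 0.30 without deficient mouse 2 (adjusted p = 0.0455 by edgeR) and missed the threshold with upper quartile scaling, limma-voom, a filter of at least 5 CPM, or GC and length offsets (log2 fold change 0.44, adjusted p = 0.0518 by edgeR), and without deficient mouse 3 or any 1 wild-type mouse (adjusted p up to 0.199 by edgeR). Newborn neuron markers summed to 68.3, 85.0 and 109 CPM in deficient and 72.7, 73.5 and 76.5 CPM in wild-type mice, with 1 of 6, Sox11, called higher; deficient mouse 1 was the lowest of all 6 mice, and the part of these cells was not tested. Markers of cortical and hippocampal excitatory neurons summed to 4429.9, 6049 and 5439 CPM in deficient and 4373, 3995 and 4678 CPM in wild-type mice, in the same order among the deficient mice as Scn3b; none of 8 was called, and their part was not tested either.

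No other beta subunit gene was called. Scn2b, the other disulfide-linked subunit, had 7.28, 10.2 and 8.88 CPM against 10.3, 9.39 and 10.8 CPM, with overlap (log2 fold change -0.21 ± 0.13 SE). As a share of the summed level of the 4 beta genes per kb, Scn3b made up 9.21, 12.8 and 11.4% in deficient mice, against 7.54, 7.39 and 7.40% in wild-type mice, and Scn4b 12.9, 15.0 and 12.3% and 16.3, 18.2 and 15.5%. These shares did not overlap between the genotypes for either gene.

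Among calcium channel pore genes Cacna1i fell. Of 10 genes, 1 fell, none rose and 9 had a negative point estimate (8 with median-ratio or upper quartile scaling, 10 without scaling, 7 with GC and length offsets). An unadjusted p under 0.05 by edgeR was found for 5, all of them lower, beside 24.9% of all tested genes in either direction. In 4 all deficient mice were below every wild-type mouse, as in 16% of all tested genes. Cacna1i encodes a low-voltage-activated (T-type) pore that supports burst firing, above all in the thalamic reticular nucleus (chr15:80287238-80398279, GRCm38). It had 115, 120.3 and 124 CPM in deficient mice and 140.3, 135 and 149 CPM in wild-type mice, 2 tight groups without overlap. The log2 fold change was -0.24 ± 0.053 SE, a fall by 15.4% (adjusted p = 0.0418 by edgeR), and it was -0.17 with GC and length offsets, past the threshold no longer (adjusted p = 0.114 by edgeR). Leaving out 1 mouse gave -0.27 to -0.20, with the call lost without deficient mouse 3 or any 1 wild-type mouse (adjusted p up to 0.133 by edgeR). Thalamic markers summed to 496, 361 and 461 CPM in deficient and 524, 569 and 499 CPM in wild-type mice, sums that did not overlap. None of the 6 was called and none had a point estimate above 0. By itself only 1 of them, Rora, did not overlap, at 199, 112 and 181 CPM against 214, 251 and 239 CPM. Rora makes up a large part of the sums and, like the cerebellar markers, was lowest in deficient mouse 2. Slc17a6, another abundant marker of this list, had 128, 120 and 109 CPM against 128, 138 and 108 CPM, with overlap. The part of these markers was not tested.

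Cacna1a and Cacna1g had the largest negative estimates of the family, and both were lowest in deficient mouse 2. Cacna1a, the P/Q-type pore of transmitter release and of Purkinje cells, had 249, 169 and 235 CPM in deficient and 279.9, 292 and 294 CPM in wild-type mice (log2 fold change -0.41 ± 0.12 SE, adjusted p = 0.0886 by edgeR). Cacna1g, a T-type pore abundant in thalamus and Purkinje cells, had 193, 107 and 175 CPM against 210.4, 225 and 224 CPM (log2 fold change -0.47 ± 0.18 SE, adjusted p = 0.150 by edgeR). For neither gene did any deficient mouse reach the wild-type range. Without deficient mouse 2 the log2 fold changes were smaller, -0.26 and -0.25, and both genes passed (adjusted p = 0.0228 and 0.0390 by edgeR). Exons of Cacna1a overlap an antisense gene over 435 bases, and without a stated use of strand their reads cannot be told apart.

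Beside these 2 genes, granule cell markers summed to 1146, 204 and 896 CPM in deficient mice 1, 2 and 3 and 1221, 1293 and 1456 CPM in wild-type mice, and 8 Purkinje cell markers to 2081, 1001 and 1768 CPM and 2275, 2384 and 2567 CPM. Deficient mice were below wild-type mice in both sums, with or without deficient mouse 2. None of the 17 markers was called, and none had a point estimate above 0. Of the 9 granule cell markers 6, and of the 8 Purkinje cell markers 5, were lower without overlap, where 16% of all tested genes were. Gabra6, a receptor subunit gene of granule cells, was at 116, 5.49 and 89.1 CPM against 131, 131 and 149.9 CPM. The part of cerebellar tissue in the values of Cacna1a and Cacna1g was not tested.

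The other calcium pore genes did not pass. Cacna1e, the R-type pore, had 307, 351 and 341 CPM against 362, 371 and 378 CPM, without overlap (log2 fold change -0.16 ± 0.057 SE, adjusted p = 0.142 by edgeR). Cacna1d, an L-type pore whose exons overlap an antisense neighbour, had 51.8, 51.0 and 66.4 CPM against 64.1, 71.3 and 70.5 CPM, with deficient mouse 3 inside the wild-type range (log2 fold change -0.28 ± 0.10 SE, adjusted p = 0.130 by edgeR; 0.0376 without that mouse). The main L-type pore gene of brain, Cacna1c, the N-type pore gene Cacna1b and the T-type pore gene Cacna1h had log2 fold changes of -0.027 ± 0.064 SE, -0.00042 ± 0.069 SE and 0.0090 ± 0.083 SE, all smaller than their errors and of unstable sign (exons of Cacna1h overlap an antisense gene). Cacna1f, of photoreceptors, and Cacna1s, of skeletal muscle, were barely detected, at 7 to 14 and 9 to 29 reads per mouse. Exons of Cacna1s overlap an antisense gene over 1309 bases.

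Among the alpha2delta subunits, extracellular proteins that raise the number of calcium channels at the surface, Cacna2d4 rose. It is best known from photoreceptors and lies at chr6:119236526-119352407 (GRCm38). The deficient mice had 7.99, 7.34 and 6.86 CPM, from 170, 175 and 149 reads, and the wild-type mice 4.45, 4.30 and 4.41 CPM, from 110, 88 and 101 reads. Wild-type mice were almost equal and all deficient mice were well above them. The log2 fold change of 0.75 ± 0.11 SE, a 1.68-fold rise (adjusted p = 0.0144 by edgeR), was the largest of all called members, stayed between 0.70 and 0.80 whichever mouse was left out, and was 0.78 with GC and length offsets. It passed in 3 of the 6 fits that left out 1 mouse, those without a deficient mouse, and missed the threshold without any 1 of the wild-type mice (largest adjusted p = 0.0789 by edgeR). Photoreceptor markers stood at 2.10 to 2.81 CPM in sum in deficient and 1.79 to 2.31 CPM in wild-type mice over 4 genes, ranges that overlapped. The 1 of them with enough reads to be tested, Sag, was not called; it had 1.88, 1.89 and 2.16 CPM in deficient mice and 1.66, 1.08 and 1.18 CPM in wild-type mice, without overlap, and its part in the Cacna2d4 result was not tested.

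The more abundant alpha2delta genes did not pass. Cacna2d2, enriched in Purkinje cells, had 124, 93.4 and 106 CPM against 134, 136 and 134 CPM, lowest in deficient mouse 2 like the Purkinje cell markers, and without overlap (log2 fold change -0.32 ± 0.090 SE, or -0.22 without that mouse, adjusted p = 0.0765 by edgeR). Cacna2d1, a binding site of gabapentin, had 271, 342 and 338 CPM against 264, 257 and 284 CPM, with deficient mouse 1 inside the wild-type range (log2 fold change 0.24 ± 0.088 SE, or 0.18 without deficient mouse 2, adjusted p = 0.138 by edgeR). Cacna2d3 was nearly equal in both genotypes, at a log2 fold change of -0.010 ± 0.061 SE. Exons of Cacna2d2 overlap an antisense gene over 82 bases.

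No gene of the cytoplasmic calcium channel beta subunits, which release the pore from retention inside the cell, passed edgeR's test. An unadjusted p under 0.05 by edgeR was found for 2 of 4, beside 24.9% of all tested genes. DESeq2 called Cacnb3 and limma-voom called none. Cacnb3, the most abundant, had 202, 245 and 231 CPM against 184, 165 and 189.6 CPM without overlap (log2 fold change 0.33 ± 0.079 SE, or 0.27 without deficient mouse 2, adjusted p = 0.0517 by edgeR). Cacnb1 had 119, 154 and 129.7 CPM against 116, 109 and 115 CPM without overlap (log2 fold change 0.25 ± 0.086 SE, adjusted p = 0.128 by edgeR), highest in deficient mouse 2, and 0.14 without that mouse. Cacnb4, the gene mutated in lethargic mice, had 56.2, 55.2 and 67.6 CPM against 60.0, 71.0 and 74.3 CPM, with overlap (log2 fold change -0.20 ± 0.10 SE, or -0.14 without deficient mouse 2), and Cacnb2 had -0.021 ± 0.046 SE. Exons of Cacnb1, Cacnb2 and Cacnb4 overlap antisense genes.

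No gamma subunit gene passed either, and neither DESeq2 nor limma-voom called any. Of 6 tested, 3 had an unadjusted p under 0.05 by edgeR, beside 24.9% of all tested genes. The AMPA receptor escorts Cacng3 and Cacng8, both abundant in forebrain, had 76.2, 105 and 95.7 CPM against 76.5, 66.2 and 80.4 CPM and 46.9, 63.8 and 57.7 CPM against 44.1, 42.3 and 48.9 CPM, with overlap through deficient mouse 1 in each (log2 fold changes 0.31 ± 0.11 SE and 0.32 ± 0.11 SE, adjusted p = 0.142 and 0.116 by edgeR). Cacng2, or stargazin, the escort that cerebellar granule cells depend on, had 119.5, 106 and 109.6 CPM against 125, 124 and 125 CPM, without overlap (log2 fold change -0.15 ± 0.053 SE, adjusted p = 0.121 by edgeR). Without deficient mouse 2 the log2 fold changes of Cacng3, Cacng8 and Cacng2 were 0.21, 0.21 and -0.12. Exons of Cacng2 overlap an antisense gene over 323 bases, and those of Cacng8 a miRNA gene of the same strand over 91 bases. The excitatory neuron markers given above were highest in deficient mouse 2 as were Cacng3 and Cacng8, and their part was not tested.

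Cacng4, Cacng5 and Cacng7 had log2 fold changes of 0.13 ± 0.057 SE, -0.043 ± 0.14 SE and -0.11 ± 0.069 SE. Cacng1, the gamma subunit of skeletal muscle, had 0 to 7 reads per mouse and was not tested. Of 8 skeletal muscle markers 4 were tested and Acta1 was called higher. The summed level was 6.44 to 8.01 CPM in deficient and 3.84 to 4.16 CPM in wild-type mice. Of this, Acta1 had 3.15, 4.70 and 4.60 CPM in deficient and 1.01, 0.831 and 0.743 CPM in wild-type mice. It was the only 1 of the 4 tested markers without overlap. Scn4a, Cacna1s and Cacng1, the channel genes of that tissue, had at most 1.17 CPM in any mouse.

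No HCN gene passed, and DESeq2 and limma-voom called none. Of 4 genes, 2 had an unadjusted p under 0.05 by edgeR, beside 24.9% of all tested genes. Hcn2, the most abundant, had 203, 175 and 175 CPM in deficient and 204, 213 and 199 CPM in wild-type mice. Deficient mouse 1 was inside the wild-type range (log2 fold change -0.16 ± 0.066 SE, or -0.12 without deficient mouse 2, adjusted p = 0.186 by edgeR). Hcn4, the sinoatrial pacemaker gene, which the thalamus also expresses, had 9.54, 7.34 and 7.64 CPM against 9.91, 10.03 and 10.2 CPM, without overlap (log2 fold change -0.30 ± 0.12 SE, or -0.23 without deficient mouse 2, adjusted p = 0.155 by edgeR). Hcn3 had 17.2, 17.7 and 18.7 CPM against 15.9, 17.1 and 16.96 CPM, apart by a narrow gap (log2 fold change 0.10 ± 0.071 SE), and its exons overlap those of Pklr on the other strand.

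**Figure D3:**
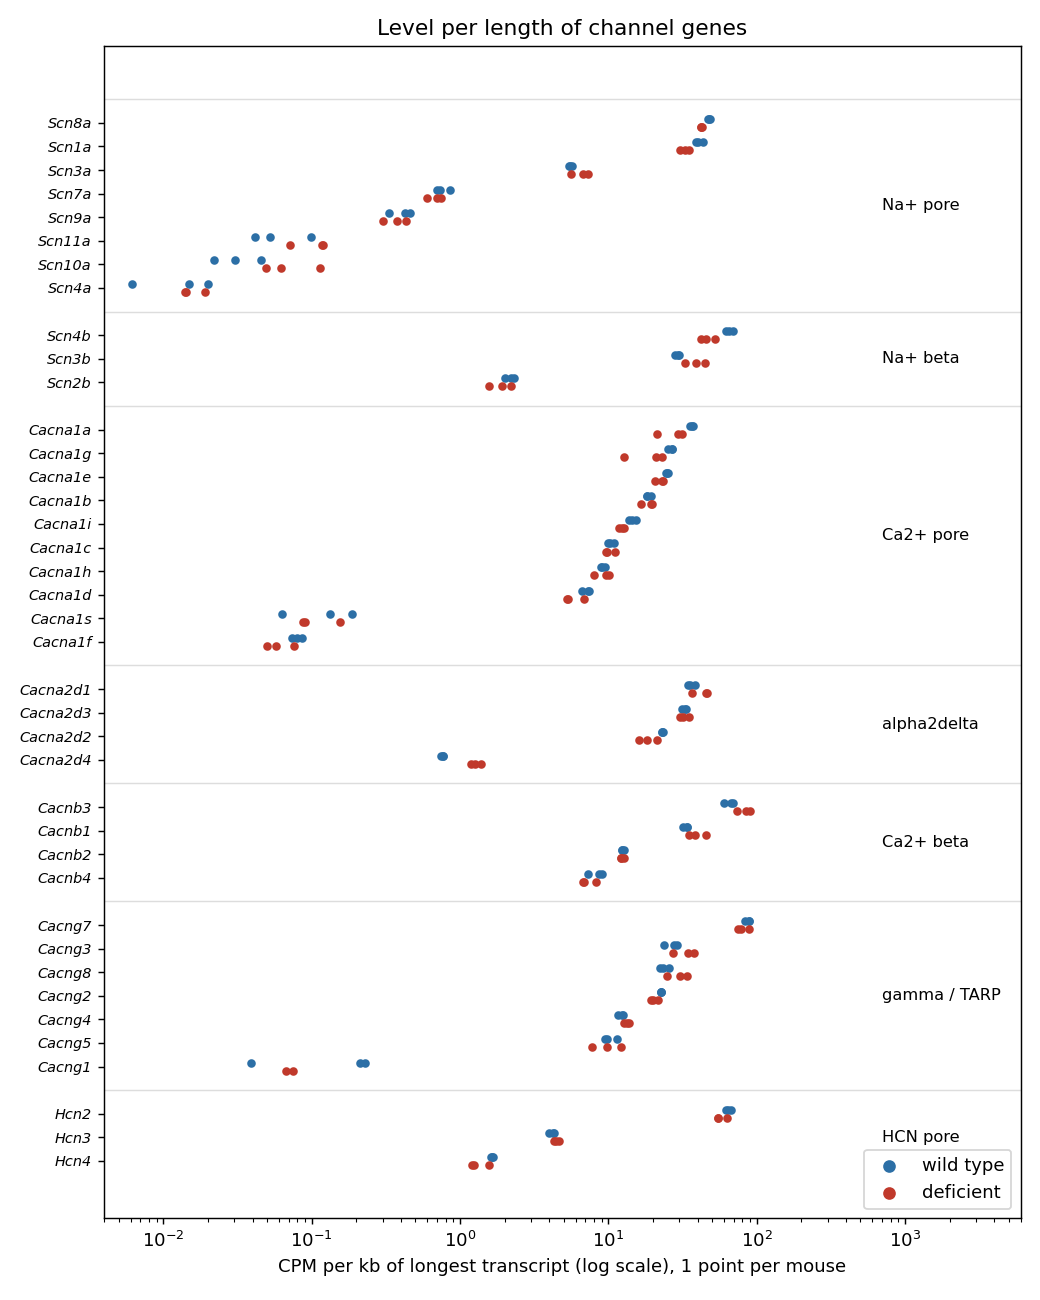
CPM per kb of the longest annotated transcript (x axis, log scale), 1 point per mouse, for 39 channel genes ordered within families by wild-type mean; blue, wild type; red, deficient. The muscle, sensory neuron and photoreceptor pores lie at the low end, and the level of Cacng1 in deficient mouse 3, which had 0 reads, is not drawn.

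Compared per kb of transcript, members differed widely in wild-type brain. Among the beta subunits Scn4b reached 65.1 ± 3.54 CPM per kb (SD, n = 3), above Scn3b at 29.1 ± 1.02 and Scn2b at 2.18 ± 0.154. Scn8a, at 47.7 ± 0.877 CPM per kb, led the sodium pore members (Scn2a, which is no member, had 50.0 ± 3.64), above Scn1a at 40.9 ± 2.27 by more than their spread. The calcium pores ran from Cacna1a at 36.4 ± 0.962 through Cacna1g at 26.2 ± 0.965 and Cacna1e at 24.8 ± 0.538 CPM per kb, to Cacna1s and Cacna1f near the bottom. Cacna2d1 (36.1 ± 1.92 CPM per kb) and Cacna2d3 (32.5 ± 1.26) were close by this measure but not per kb of exon union, at 21.6 ± 1.15 and 13.8 ± 0.532 CPM, and Cacna2d4 (0.756 ± 0.0132) was the lowest alpha2delta gene. Cacnb3 (65.7 ± 4.62), Cacng7 (87.0 ± 2.79) and Hcn2 (64.2 ± 2.26 CPM per kb) led the other families. Dividing by the union of annotated exons kept the same leading gene in all 7 families.

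Among the sodium pore genes the shares of Scn8a and Scn3a, as well as those of Scn1a and Scn2a, lay apart between the genotypes. With Scn2a added, the summed level per kb was 135, 138 and 139 CPM in deficient mice 1, 2 and 3 and 143, 146 and 150.4 CPM in wild-type mice. Scn1a made up 25.7, 21.9 and 23.4% of it in deficient mice, against 27.2, 29.8 and 26.7% in wild-type mice, and Scn2a 36.4, 40.4 and 39.4% and 34.1, 32.3 and 35.9%. Neither share overlapped between the genotypes, and deficient mouse 2 had the lowest Scn1a share and the highest Scn2a share. The summed calcium pore level per kb was 127, 114 and 134 CPM in deficient and 143, 147 and 152 CPM in wild-type mice, also without overlap, and Hcn2 held 86.5, 85.4 and 84.3% and 87.1, 86.8 and 85.6% of the HCN level, shares that overlapped. These sums and shares were not tested.

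**Figure D4:**
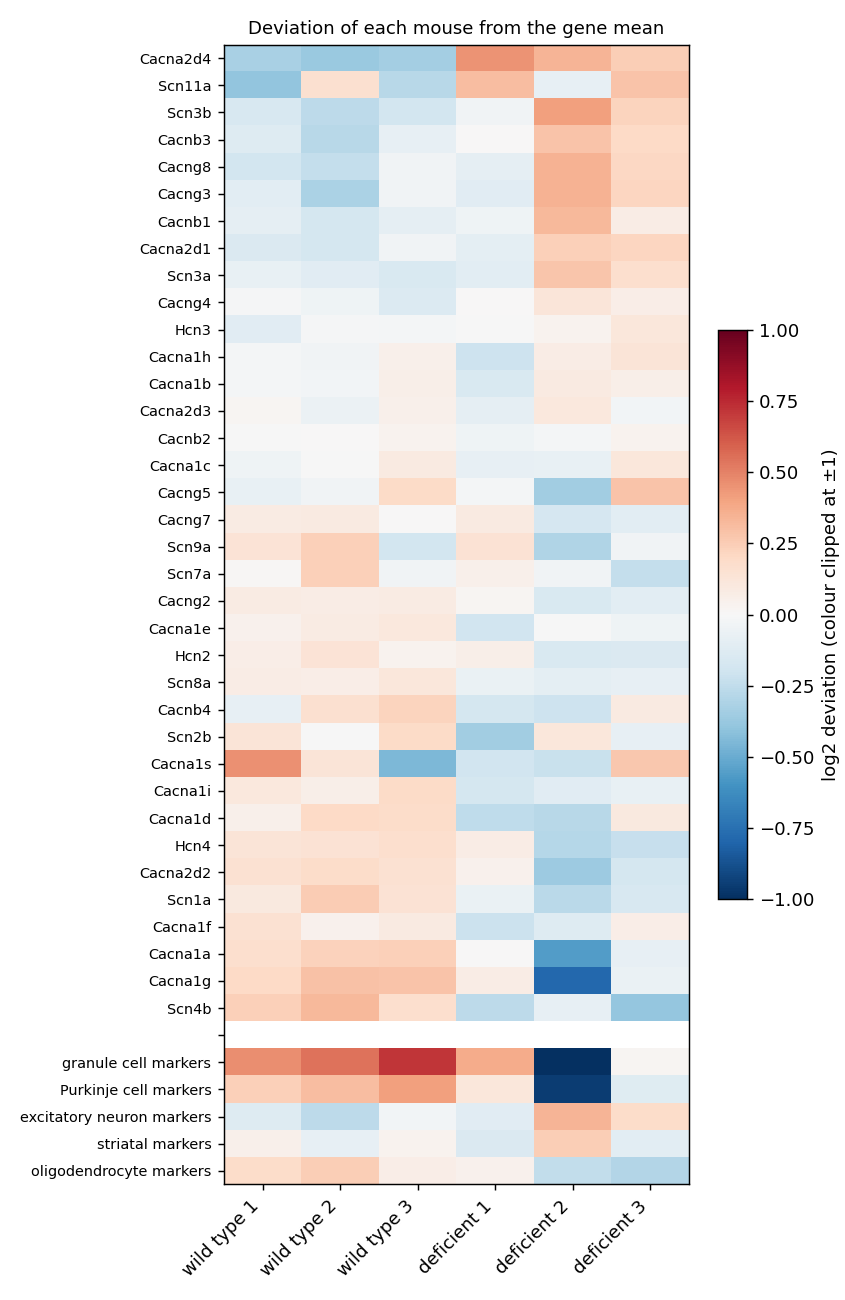
Log2 deviation of each mouse (columns) from the mean of the 6 mice, for log2(CPM + 0.5) of 36 tested channel genes (rows, ordered by log2 fold change) and, at the foot, for the log2 summed CPM of 5 marker lists; colours are clipped at ±1. Deficient mouse 2 is lowest for Cacna1g, Cacna1a and both cerebellar lists, and highest for excitatory neuron markers, Cacng3 and Cacng8, while Cacna2d4 is above every wild-type mouse in all 3 deficient mice.

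Partner genes are those whose proteins anchor, modulate or act directly downstream of these channels. Of 43 listed, all tested, 1 rose and 3 fell, 9.3% beside the 4.93% of all tested genes. Ryr3, a release channel of the endoplasmic reticulum's calcium store, had 49.3, 56.6 and 54.4 CPM in deficient and 70.7, 76.0 and 67.9 CPM in wild-type mice, without overlap (log2 fold change -0.42 ± 0.067 SE, adjusted p = 0.0192 by edgeR), and exons of Ryr3 overlap those of Aven on the other strand. Bzrap1, a RIM-binding protein that tethers presynaptic calcium channels to release sites, had 252, 235 and 273 CPM against 332, 339 and 316 CPM (log2 fold change -0.38 ± 0.062 SE, adjusted p = 0.0213 by edgeR). Sptbn4, the spectrin under clustered sodium channels at the axon initial segment and nodes, had 206, 191 and 211 CPM against 247, 238 and 245 CPM (log2 fold change -0.26 ± 0.051 SE, adjusted p = 0.0293 by edgeR); it shares exon bases with a second gene of the same strand. Deficient mouse 2 was the lowest of all mice for Bzrap1 and Sptbn4, whose log2 fold changes without it were -0.33 and -0.22. With GC and length offsets 2 partners were called, and Ryr3 was not among them. Without any 1 of the wild-type mice no partner passed (at an unadjusted p under 0.05 there were 13, 11 and 13), and without deficient mice 1, 2 and 3 the numbers called were 13, 4 and 1. DESeq2 called 9 partners, these 4 with Cabp2, Camk2a, Fgf13, Stx1a and Unc80. The shares of all genes called in the same fits are those given for the channel genes.

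Oligodendrocyte markers, which bear on genes of myelinated axons such as Sptbn4, summed to 7112, 5809.7 and 5622 CPM in deficient and 7847, 8164 and 7216 CPM in wild-type mice, with 1 of 8 called lower. Their part in the partner results was not tested.

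In the authors' deposited table, with the sign turned to deficient over wild type, the log2 fold changes were 0.55 for Cacna2d4, 0.37 for Scn3b, -0.44 for Scn4b, -0.31 for Scn1a and -0.23 for Cacna1i. Each was smaller in size than the value found here, and Scn11a, with few reads, had 0.12 against 0.69 here. Of the 39 tested members 38 had the same sign in the authors' deposited table as here, where both sets of values come from the same mice.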

How the data were processed

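RNA of 6 mouse brains was measured by sequencing of TruSeq libraries, per the labels' protocols. The deposited table holds 1 raw count per gene symbol and mouse, per the file headers. The same table carries the authors' mean signal over all mice, and their log2 fold change, its error, a Wald score and a p-value without adjustment per gene, as deposited; these were used for comparison only. The submitters' processing notes name DESeq2 and GRCm38; which aligner, counter and annotation were used, and whether strand was read, is not given in the sources used here.

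Counts were analysed with edgeR 4.0.16 in R 4.3.3. Its expression filter (minimum count 10, minimum total 15) kept 15127 genes. Scaling used the trimmed mean of M-values. The quasi-likelihood test of edgeR compared the genotypes with no covariate, p-values were adjusted by Benjamini-Hochberg over all genes tested, and the threshold was 0.05. SE came from the F statistic. Transcript lengths, GC content, positions and exon overlaps came from GENCODE M21 (GRCm38). Each library is labelled as a separate mouse.

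Named genes were Kdm5c, all members past the threshold, the 3 with the smallest p and the highest level per length in each of 7 families, and partners that passed or had the 3 smallest p; others were chosen after their values were seen. The values of some genes that enter these counts are not reported here. The members, lists and alternatives were chosen with earlier results of these data known. The fit was tested on simulated data: of genes changed 1.5-fold it recovered 71.4%, and at 1.25-fold 34.7%. The simulated variance followed its trend with expression level, with no variance particular to a gene and no library that stood apart. Recovery in the real data may therefore differ. Alternatives were other scalings and filters, DESeq2 1.42.0, limma-voom (limma 3.58.1), the mouse number as a block, other thresholds, GC and length offsets, and leaving out each mouse.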

Additional observations from a re-analysis of the deposited data

How the results depend on the processing

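With 3 members higher and 3 lower, other settings gave between 0 and 4 higher and between 0 and 7 lower, apart from the fits without 1 mouse. Lower members numbered 5 with no low-count filter, 6 with DESeq2 and 7 at a threshold of 0.10; at 0.01 there were 0 in either direction (22 at an unadjusted p under 0.05 by edgeR). Leaving out 1 mouse gave 0 to 9 higher and 0 to 12 lower members, and 0 to 7 higher and 0 to 6 lower partners, against 1 and 3 with all mice. Higher partners numbered 0 without scaling, 3 with no low-count filter, 5 with DESeq2, 0 with GC and length offsets and 4 at a threshold of 0.10, where 6 were lower; at 0.01 there were 0 and 0. Of all tested genes, 5.32% passed with no low-count filter and 4.62% without scaling. Shares of all genes at thresholds of 0.10 and 0.01 were not counted. With the mouse number as a replicate block 0 members were higher and 1, Scn4b, lower, and 0 partners passed in either direction. In that fit 0.383% of all genes passed, against 4.93% without the block. The titles share only a number: correlations of same-numbered deviations were -0.061, -0.087 and 0.15, so the block is no pairing, and of the numbers 1 to 3 only mouse 3 of each genotype correlated best with its own number.

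Of 606 member and setting combinations, 518 kept sign and side of the threshold, and 29 of 36 members kept their sign in all 17 settings. The sign turned in 7 members, all with log2 fold changes within about 1 SE of 0; the cause was not tested. With GC and length offsets the values were 0.069 for Cacna1b, 0.072 for Cacna1c, 0.0028 for Cacna2d3 and 0.060 for Cacnb2. Cacna1b was at 0.00031 with median-ratio scaling, 0.0013 with upper quartile scaling, 0.00082 with no low-count filter and 0.0020 with DESeq2, and Cacna1h at -0.0059 without scaling. The fits without 1 mouse turned Cacna1b (-0.047 to 0.075), Cacna1c (-0.092 to 0.012), Cacna1h (-0.057 to 0.11), Cacna1s (-0.55 to 0.19), Cacna2d3 (-0.068 to 0.035) and Cacng5 (-0.21 to 0.10). Per kb of exon union the leading genes stood at 34.6 CPM for Scn8a, 25.3 for Cacna1a, 21.6 for Cacna2d1, 44.8 for Cacnb3 and 78.8 for Cacng7, since the union is longer; Hcn2 was unchanged. Members at a few reads per mouse (Scn4a, Scn10a, Scn11a, Cacna1f, Cacna1s, Cacng1) would show only large differences at this depth.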

Other observations

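Several members are neighbours on their chromosomes (GRCm38), called genes among them. Scn4b lies 8.32 kb after Scn2b on the same strand of chromosome 9; their log2 fold changes were -0.48 and -0.21, and Scn2b did not pass. Cacna2d4 starts 40.1 kb from the start of Cacna1c on chromosome 6, where the genes point away from each other; Cacna1c had a log2 fold change of -0.027 and Cacna2d4 of 0.75. On chromosome 2, Scn1a, at -0.33, lies 39.2 kb from Scn9a, which had -0.15 ± 0.18 SE and did not pass. Whether neighbours differed from each other was not tested.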
